A study of Mus musculus with 6 samples.

Results

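Erythropoietin drives the survival and growth of red cell precursors through a single receptor. The 10 genes described here are the receptor Epor, its kinase Jak2, the transcription factors Stat5a and Stat5b that the kinase activates, and 6 genes described as targets or feedback inhibitors of this signal: Cish, Socs2, Socs3, Pim1, Bcl2l1 and Podxl. They were chosen by name, with earlier results of these data known, and each was read at every probe set annotated to it alone. This gave 25 probe sets of 45101 on the array, for 10 genes of the 18193 with a probe set of their own. The arrays carried RNA of early erythroid progenitors from mouse fetal liver at embryonic day 13.5, as the labels name them, sorted by flow cytometry with antibodies to CD71 and Ter119. There were 3 arrays labelled Eklf-/- (knockout) and 3 labelled wild type, all on a C57BL/6 background and each from 1 liver per the labels. Eklf, with the gene symbol Klf1, encodes a zinc finger activator of red cell genes. Which part of the gene is deleted is not given in the sources used here, and the labels name no promoter or Cre.

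Binding of erythropoietin brings a pair of receptor chains together, and the Jak2 bound to each phosphorylates the other and the receptor tail. Stat5 proteins dock there, are phosphorylated, pair up and move to the nucleus, where they bind palindromes with the core TTCNNNGAA. Among the genes they switch on are Cish and the Socs genes, whose products dampen the receptor, and Bcl2l1, the gene of the anti-apoptotic protein Bcl-xL.

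Promoter windows of GRCm38.p6, taken from RefSeq, were at hand for 8 of the 10 genes (13 windows, from 250 bases before an annotated start to 50 bases after it). Some of these starts, such as those of Stat5b, Bcl2l1 and Socs3, lie inside the gene. Podxl and Socs2 had no entry. The motifs were searched on both strands and were TTCNNNGAA, the Stat palindrome, GATAA, the core bound by Gata1, and CCACNCCC, a CACCC box of the kind bound by Klf1. The Stat palindrome was in 2 of the 13 windows (15.4%), those of Cish and Socs3, and in 8.3% of all 32851 windows. GATAA was in 3 of the 13 (23.1%), of Epor, Cish and Bcl2l1, and in 25.4% of all windows. The CACCC box was in 4 of the 13 (30.8%), of Epor, Jak2, Pim1 and Bcl2l1, and in 17.6% of all windows. With so few windows, several of them from 1 gene, these shares are descriptions. The first sequence is the 250 bases before the start of Epor (chr9:21963577-21963826, minus strand), shown because it holds both a Gata core and a CACCC box, in capitals, 54 and 122 bases before the start. The other sequences are stretches of 30 bases around the Stat palindromes, in capitals, of Cish (chr9:107296654-107296683, plus strand) and Socs3 (chr11:117969501-117969530, minus strand), shown because these genes encode inhibitors of the receptor. These matches are descriptions of sequence, and binding was not measured.
Epor: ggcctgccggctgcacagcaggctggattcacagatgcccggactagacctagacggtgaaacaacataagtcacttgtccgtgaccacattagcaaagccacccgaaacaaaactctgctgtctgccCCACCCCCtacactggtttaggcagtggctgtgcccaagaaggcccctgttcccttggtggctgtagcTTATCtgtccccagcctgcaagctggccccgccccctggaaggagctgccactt
Cish: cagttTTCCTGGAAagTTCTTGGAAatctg
Socs3: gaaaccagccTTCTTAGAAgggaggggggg

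Several facts of the whole set of arrays bear on all values below. Klf1 itself gave 3505, 1391 and 2545 on the knockout-labelled arrays, against 2508, 2706 and 4030 on those labelled wild type, so the groups overlapped (log2 difference -0.38 ± 0.32, SE; limma adjusted p = 0.358), and groups are therefore called by their labels. The values are linear MAS5 signals that the authors scaled to the same trimmed mean of 500 on each array. The median signal over all probe sets was 204 to 218 on the knockout-labelled arrays and 97.7 to 140 on the wild-type-labelled arrays, so the choice of scaling matters. Of 12799 genes tested with limma, 5861 (45.8%) passed an adjusted p of 0.05, of which 3340 were higher in the knockout-labelled group and 2521 were lower. That is 57% higher among the calls, whereas quantile normalization gave 44.7%, cyclic loess 46.1% and median centring 14.4%, and the last of these moved the median difference of all genes to -0.68 from 0.14. Each tested erythroid marker lay above the filter on all arrays, and 8 of 9 rose, while 7 of 10 stem and progenitor markers and 6 of 7 lymphoid markers fell. Of the lymphoid ones 3 (Cd79a, Vpreb1 and Rag1) were tested only through the wild-type-labelled arrays, since their knockout-labelled mean is under the filter. All 10 hepatocyte markers, 7 of 8 stromal, 8 of 9 megakaryocyte and 6 of 10 endothelial markers rose. Of these 1 hepatocyte (Fgb), 4 stromal (Col1a1, Dcn, Lum and Pdgfra) and 3 endothelial markers (Cdh5, Tie1 and Flt1) were likewise tested only through the knockout-labelled arrays, so these counts describe which markers moved and support nothing. The labelled cell type is not the only one whose markers were bright. The neutrophil genes Mpo, S100a8 and S100a9 stood at or above the 99.59th percentile on all 6 arrays, the B cell precursor gene Vpreb1 gave 21.7 to 99.9 on the knockout-labelled arrays and 6396 to 11889 on the wild-type-labelled arrays, and the hepatocyte gene Alb gave 29091 to 51414 against 2152 to 2459. In such bulk samples, fewer cells of a type and less RNA per cell cannot be told apart.

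The receptor, the inhibitor Cish, the kinase gene Pim1, the survival gene Bcl2l1 and Podxl were higher on the knockout-labelled arrays, while the signal of Stat5a at its brightest probe set was lower. Read at the brightest probe set of each gene, 5 of the 10 genes rose, 1 fell and 4 did not pass (45.8% of all genes were called, 26.1% upward and 19.7% downward). The median log2 difference was 1.13 over the 10 genes and 0.14 over all genes tested. Since the 10 genes were chosen with earlier results of these data known, these contrasts are descriptions. Of the 25 probe sets, 21 were bright enough to be tested, and 10 of these rose, among them 1 of Bcl2l1 that was tested only through its knockout-labelled values, and 1 fell (43.8% of all 27023 probe sets tested were called, 28.1% upward and 15.7% downward). The groups did not overlap for 11 of the 21, where 57.6% of all probe sets tested did not overlap. The 4 probe sets left out were dim, 3 of Socs2 and 1 of Bcl2l1.

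**Figure D1:**
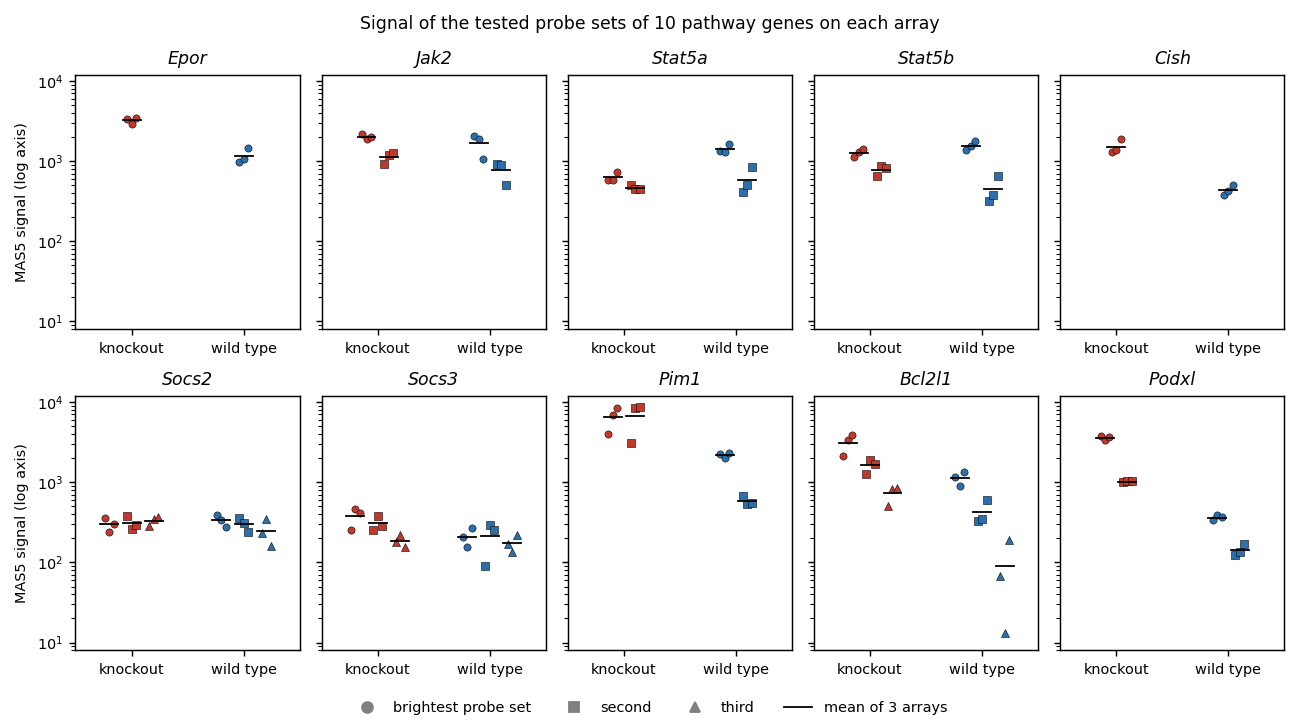
MAS5 signal (log axis) of the 21 tested probe sets of the 10 genes, with 1 point per array, knockout-labelled arrays left in red and wild-type-labelled arrays right in blue, and a black line at each mean. Epor, Cish, Pim1, Bcl2l1 and Podxl lie higher on all 3 knockout-labelled arrays, and the brightest Stat5a probe set lies lower on all 3.

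Epor, the receptor, has 1 probe set (1423344_at). Its signal was 3345, 2937 and 3431 on the knockout-labelled arrays, against 972.1, 1075 and 1455 on the wild-type-labelled arrays. The groups did not overlap, and the lowest knockout-labelled value lay well above the highest wild-type-labelled one. Epor averaged 3238 ± 264 and 1168 ± 254 in these groups (SD, n = 3 each) and rose 2.81-fold, or by 1.49 ± 0.19 on the log2 scale (SE, limma adjusted p = 0.00045). By rank, which no scaling factor of an array changes, Epor stood at the 95.5th to 96.2nd percentile of all probe sets of its array on the knockout-labelled arrays and at the 83.5th to 88.5th on the wild-type-labelled arrays. The call was lost after median centring, where the difference was 0.68 (adjusted p = 0.0799). Erythroid markers moved the same way as Epor. The sum of the 9 with a probe set was 76895 to 98283 on the knockout-labelled arrays and 22777 to 25248 on the wild-type-labelled arrays. The part of erythroid cell content in the values of Epor, Cish, Pim1, Bcl2l1 and Podxl was not tested.

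Jak2, the kinase bound to the receptor, has 2 probe sets, and neither passed the test. The brighter one (1421066_at) gave 2148, 1879 and 2013 on the knockout-labelled arrays, against 2083, 1886 and 1053 on the wild-type-labelled arrays. Wild-type-labelled array 3 was the low value, and the other 5 arrays lay close together. The log2 difference was 0.33 ± 0.25 (SE, limma adjusted p = 0.31), and after median centring it was -0.49. The other probe set (1421065_at) gave 932.9, 1194 and 1258 against 932.1, 885.7 and 499.6, a difference of 0.59 ± 0.26 (adjusted p = 0.0974), also with wild-type-labelled array 3 lowest. Its groups did not overlap, but the lowest knockout-labelled value and the highest wild-type-labelled value were almost equal. The log ratio of Epor to Jak2 within each array, which no scaling factor of an array can change, was 0.64, 0.64 and 0.77 on the knockout-labelled arrays and -1.10, -0.81 and 0.47 on the wild-type-labelled arrays. It was higher on every knockout-labelled array, which is a description, since the exact two-sided permutation p of 0.1 is the smallest that 3 against 3 arrays allow.

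Stat5a and Stat5b are near-identical transcription factors whose genes lie next to each other on chromosome 11, and their probe sets did not move as a unit. The brighter Stat5a probe set (1421469_a_at) gave 577.1, 579.1 and 737.2 on the knockout-labelled arrays, against 1351, 1292 and 1622 on the wild-type-labelled arrays. All 3 knockout-labelled values were below all 3 wild-type-labelled ones. Stat5a was 2.26-fold lower, with a difference of -1.17 ± 0.19 on the log2 scale (SE, limma adjusted p = 0.00162), and this call held in each of the 15 other fits per probe set. The second Stat5a probe set (1450259_a_at) gave 510.1, 448.1 and 443.8, against 414.5, 509.5 and 837.1, and did not pass (-0.27 ± 0.28, adjusted p = 0.449). Here the groups overlapped, and without wild-type-labelled array 3, the highest, the difference was 0.021. It passed, downward, only after median centring (-1.08, adjusted p = 0.023). The 2 Stat5a probe sets thus gave unequal values, and the fall rests on the brighter of them.

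The brighter Stat5b probe set (1422103_a_at) gave 1136, 1280 and 1408 on the knockout-labelled arrays, against 1391, 1524 and 1763 on the wild-type-labelled arrays. The groups overlapped narrowly, and it did not pass (-0.29 ± 0.17, limma adjusted p = 0.193), except after median centring (-1.11, adjusted p = 0.00523). The dimmer probe set (1422102_a_at) went the other way, with 642.4, 858.9 and 819.6 against 314.1, 379.3 and 656.4. Its groups overlapped at 1 array each, and it passed narrowly at 0.84 ± 0.29 (adjusted p = 0.0422). This call was lost in 9 of 15 other fits, including those after cyclic loess (0.72, adjusted p = 0.116) and quantile normalization (0.73, adjusted p = 0.0844) and the fits without knockout-labelled array 2 or 3 or without wild-type-labelled array 1 or 2 (adjusted p 0.109 to 0.135). No direction is therefore given for Stat5b. The within-array log ratio of the brightest Stat5a to the brightest Stat5b probe set was -0.98, -1.15 and -0.93 on the knockout-labelled arrays, against -0.042, -0.24 and -0.12 on the wild-type-labelled arrays. The groups did not overlap and differed by -0.89, a description of a pair whose values were already known (the exact two-sided permutation p of 0.1 is the smallest possible here and passes no usual threshold).

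Stem and progenitor markers summed to 8293 to 9095 on the knockout-labelled arrays and 27449 to 28131 on the wild-type-labelled arrays. This sum moved the same way as Stat5a. Of the 10 markers 7 fell, and Meis1 and Mycn did not pass. Hoxa9 rose at its brightest probe set (1.26, limma adjusted p = 0.00264) and fell at its other one (-1.78, adjusted p = 0.00653). The sum of lymphoid markers moved the same way as Stat5a too, at 737 to 1288 against 21441 to 32383. The part of either in the Stat5a value was not tested.

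**Figure D2:**
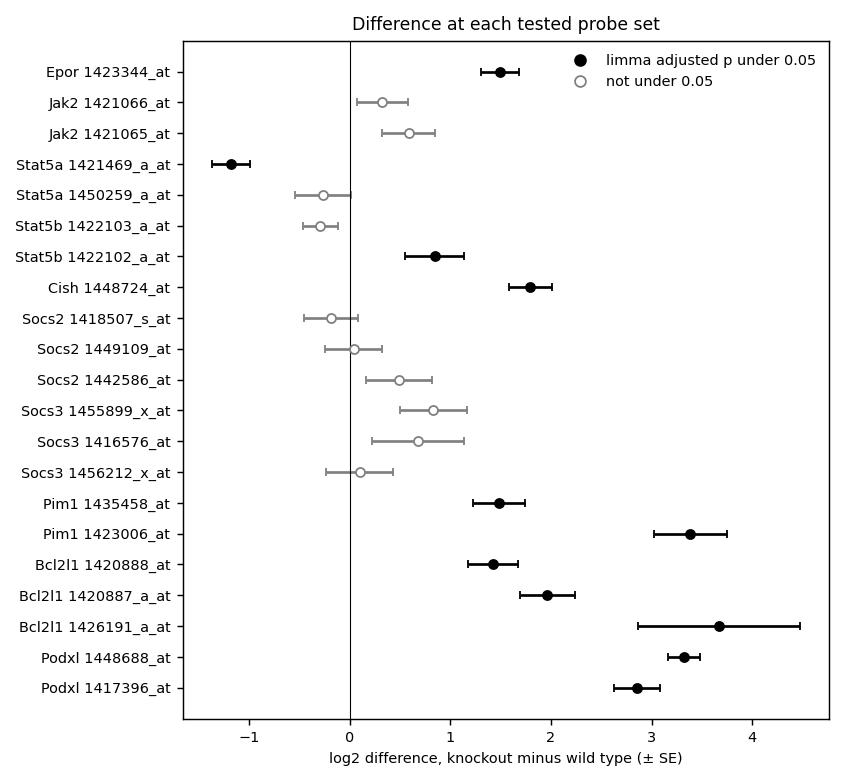
Log2 difference, knockout-labelled minus wild-type-labelled, at each of the 21 tested probe sets, with the SE of the limma fit; filled points passed an adjusted p of 0.05. Both probe sets of Pim1 and of Podxl and the 3 of Bcl2l1 lie to the right of 0, while the probe sets of Stat5a and Stat5b differ within each gene.

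Cish and the Socs genes encode inhibitors that bind the activated receptor or its kinase. Cish (1448724_at) gave 1309, 1356 and 1869 on the knockout-labelled arrays, against 377.3, 417.8 and 504.2 on the wild-type-labelled arrays. Every knockout-labelled value was above every wild-type-labelled one. Cish averaged 1511 ± 311 and 433 ± 64.8 (SD, n = 3 each) and rose 3.47-fold (log2 difference 1.79 ± 0.21, SE; limma adjusted p = 0.000332). It passed in all 15 other fits per probe set, with differences of 0.98 after median centring to 1.91, and its percentile within the array was 88.4 to 92.3, against 70.1 to 76.

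Socs2, an inhibitor best known for dampening growth hormone signalling, has 6 probe sets, the most of the 10 genes. The brightest (1418507_s_at, a design that can bind several transcripts) gave 356.3, 240.8 and 301 on the knockout-labelled arrays, against 394.6, 340.4 and 279.4 on the wild-type-labelled arrays. The groups overlapped (-0.18 ± 0.27, SE; limma adjusted p = 0.601). The others above the filter gave 0.040 (1449109_at, adjusted p = 0.916) and 0.49 (1442586_at, adjusted p = 0.243). No Socs2 probe set passed as deposited. After median centring the brightest 2 passed downward (-0.99 with adjusted p = 0.0128, and -0.78 with adjusted p = 0.0429). The 3 dim Socs2 probe sets averaged 14 to 77.9 on the knockout-labelled arrays and 7.93 to 49 on the wild-type-labelled arrays and were not tested.

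Socs3, which blocks Jak2 directly, was dim at all 3 of its probe sets. The brightest (1455899_x_at, a design prone to cross-hybridisation) gave 251.7, 458 and 415.6 on the knockout-labelled arrays, against 204.4, 154.7 and 269.2 on the wild-type-labelled arrays. Knockout-labelled array 1 and wild-type-labelled array 3 overlapped. The difference of 0.83 ± 0.33 (SE) did not pass (limma adjusted p = 0.0706). It passed without knockout-labelled array 1 (1.10, adjusted p = 0.0299) or without wild-type-labelled array 3 (1.03, adjusted p = 0.0377), and it was 0.32 after quantile normalization and 0.016 after median centring. The other 2 probe sets gave 0.68 (1416576_at, adjusted p = 0.243) and 0.099 (1456212_x_at, adjusted p = 0.823). Of Cish, Socs2 and Socs3, Cish alone passed as deposited, though whether its change differs from that of Socs2 or Socs3 was not tested.

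Pim1 encodes a serine/threonine kinase that favours survival and is a known Stat5 target. At its brightest probe set (1435458_at) the signal was 3965, 6927 and 8424 on the knockout-labelled arrays, against 2242, 2020 and 2341 on the wild-type-labelled arrays. The groups did not overlap, and knockout-labelled array 1 was the lowest of its group. The rise was 2.79-fold (log2 difference 1.48 ± 0.26, SE; limma adjusted p = 0.00237). The other probe set (1423006_at) gave 3118, 8518 and 8596, against 681.9, 529.4 and 555.3, a rise of 10.4-fold (3.39 ± 0.36, adjusted p = 0.000181). Knockout-labelled array 1 was again lowest and still several times above the wild-type-labelled arrays. The probe sets agreed in direction and differed in size, with the larger fold at the probe set whose wild-type-labelled signal was dimmer. After median centring the brightest probe set did not pass (0.67, adjusted p = 0.0963), and the other one did in all 15 other fits.

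Bcl2l1, the Bcl-xL gene, has 4 probe sets, of which 3 were tested. The brightest (1420888_at) gave 2109, 3381 and 3827 on the knockout-labelled arrays, against 1162, 896.2 and 1357 on the wild-type-labelled arrays. These values did not overlap, and knockout-labelled array 1 was lowest of its group here too. Its mean was 3106 ± 892 and 1138 ± 231 (SD, n = 3 each), a rise of 2.68-fold (log2 difference 1.42 ± 0.25, SE; limma adjusted p = 0.00258) that did not pass after median centring (0.61, adjusted p = 0.14). The second (1420887_a_at) gave 1265, 1906 and 1689, against 329.3, 343.6 and 605.4, a rise of 3.9-fold (adjusted p = 0.000798) that passed in all 15 other fits (1.15 after median centring, adjusted p = 0.0167). The dimmest of them (1426191_a_at) gave 498.1, 824.8 and 855.9, against 68.07, 13.29 and 189.3. The wild-type-labelled mean is under the filter, so this probe set was tested only through the knockout-labelled arrays, and its call (adjusted p = 0.007; 2.85 after median centring, adjusted p = 0.0096) adds no independent support. Its fold of 12.7 was 6.22 without wild-type-labelled array 2 and 23.5 without wild-type-labelled array 3. A further, dim probe set (1426050_at) gave 63.86, 179.9 and 69.24 against 41.02, 76.01 and 46.99 and was not tested.

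Podxl encodes podocalyxin, a sialomucin of the cell surface found on embryonic red cell precursors, platelets' precursors and vascular endothelium. Its brighter probe set (1448688_at) gave 3787, 3395 and 3623 on the knockout-labelled arrays, against 334.1, 384.3 and 365.6 on the wild-type-labelled arrays. The spread within each group was small beside the gap between them. Podxl averaged 3602 ± 197 and 361 ± 25.4 (SD, n = 3 each), a rise of 9.97-fold (log2 difference 3.32 ± 0.16, SE; limma adjusted p = 6.36e-06). Among the 21 tested probe sets this was the lowest adjusted p. The dimmer probe set (1417396_at) gave 998.3, 1025 and 1025, against 124, 133.4 and 167.6, a rise of 7.23-fold (2.86 ± 0.23, adjusted p = 4.49e-05). Both passed in all 15 other fits, with differences of 2.50 to 3.46 and 2.04 to 2.98.

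Markers of endothelium and of megakaryocytes, which also make podocalyxin, moved with Podxl in their sums. The summed signal of 10 endothelial markers was 5379 to 7328 on the knockout-labelled arrays and 1902 to 2488 on the wild-type-labelled arrays. The endothelial genes Cdh5, Kdr, Flt1, Stab2, Esam and Tie1 passed upward, and Pecam1, Tek, Emcn and Lyve1 did not pass. The sum of 9 megakaryocyte markers was 33214 to 43325, against 7554 to 8656. The gates of the sort on CD71 and Ter119 are not given in the labels. The part of endothelial cells and of megakaryocytes in the Podxl value was not tested.

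**Figure D3:**
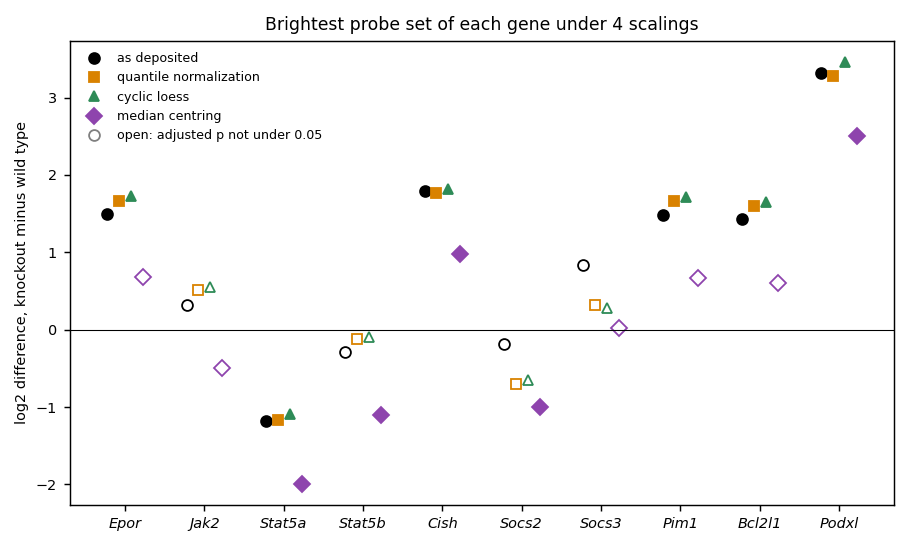
Log2 difference, knockout-labelled minus wild-type-labelled, at the brightest probe set of each gene under 4 scalings, which are the deposited one, quantile normalization, cyclic loess and median centring; filled symbols passed an adjusted p of 0.05. Cish and Podxl stay above 0 and Stat5a below 0 with a passing p under all 4, while Epor, Pim1 and Bcl2l1 lose their call after median centring and Jak2 changes side.

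The rest of the pathway was described with lists of related genes, also chosen with earlier results of these data known. Of 75 such genes tested, 12 rose, 31 fell and 32 did not pass. Over all genes 45.8% were called, 26.1% upward and 19.7% downward. These shares also belong beside the counts of each list below, which describe few genes each. The median difference over the 75 was -0.46, against 0.14 over all genes. After median centring 4 rose and 49 fell.

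Among other inhibitors of cytokine signalling, 2 of 18 tested rose and 9 fell, with a median of -0.60. Cbl, a ubiquitin ligase that targets activated receptors and kinases, gave 1599, 1794 and 1689 on the knockout-labelled arrays, against 4743, 4709 and 4939 on the wild-type-labelled arrays. It averaged 1694 against 4797 and fell (limma adjusted p = 9.1e-05). Its other probe sets gave -2.19 (adjusted p = 2.59e-05) and -0.29 (adjusted p = 0.422). Sh2b3, the adaptor Lnk that restrains Jak2, gave 639, 427.9 and 681.8 against 2021, 2044 and 2995, and fell by 2.02 (adjusted p = 0.000336). Its groups lay far apart, and its second probe set fell as well (-1.09, adjusted p = 0.0227). Ptpn1, a tyrosine phosphatase, fell by 1.21 (adjusted p = 0.000471), while its second probe set did not pass (-0.27, adjusted p = 0.279). Spry1, an inhibitor of Ras signalling, rose by 2.22 (adjusted p = 0.000183), with 1188, 1990 and 1751 against 339.4, 304 and 396.9. Socs1, the close relative of Socs3, was too dim to be tested, at 11.41 to 100.4 on the knockout-labelled arrays and 32.66 to 73.18 on the wild-type-labelled arrays.

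Of 7 other Jak and Stat genes 1 rose and 3 fell. Stat4, a factor of lymphoid and myeloid cells, gave 49.85, 26.7 and 40.45 on the knockout-labelled arrays, against 680, 568 and 434.9 on the wild-type-labelled arrays. It fell by 3.87 (limma adjusted p = 0.000124). Its knockout-labelled values lie under the filter, so it was tested only through the wild-type-labelled arrays and its size rests on dim signal, and lymphoid markers moved with it, their part not being tested. Jak3, a kinase of lymphoid receptors, fell by 0.71 (adjusted p = 0.00921). Stat6 fell by 0.92 (adjusted p = 0.0135), although its other probe set gave 0.35 (adjusted p = 0.244). Stat2, an interferon factor, rose by 0.90 (adjusted p = 0.0145), while its other, dim probe set gave -1.02 (adjusted p = 0.268). Stat3 did not pass at its brightest probe set (-0.39, adjusted p = 0.125), while another passed downward (-0.607, adjusted p = 0.0273). Its dimmer ones gave -0.526 (adjusted p = 0.347) and 0.054 (adjusted p = 0.95).

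Among adaptors and kinases that act at the receptor, 3 of 14 rose and 5 fell. Irs2, an insulin receptor substrate that also serves cytokine receptors, gave 1165, 1047 and 1345 on the knockout-labelled arrays, against 119.1, 126.6 and 127.1 on the wild-type-labelled arrays. It rose 9.49-fold (log2 difference 3.25 ± 0.22, SE; limma adjusted p = 2.42e-05). Gab1, a docking protein phosphorylated after erythropoietin binds, rose by 1.21 (adjusted p = 0.0015), and its 2 other probe sets gave 1.27 and 1.60. Tfr2, the second transferrin receptor and a partner of Epor, also rose, at 1774, 1259 and 1730 against 623.4, 797.4 and 824.7 (1.08, adjusted p = 0.00364); it was named after its values were seen. Grb2, the adaptor that links receptors to Ras, fell by 1.08 (adjusted p = 0.00237), with -0.91 at its other probe set. Plcg2, a phospholipase of blood cells, fell by 1.75 (adjusted p = 0.000197).

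In the PI3 kinase and Akt branch, 2 of 8 genes rose and 3 fell. Akt1 fell by 1.35 (limma adjusted p = 0.00368), and its other tested probe sets did not pass (-0.72 and -0.21). Mtor fell by 0.62 (adjusted p = 0.0139), while a second probe set rose by 0.73 (adjusted p = 0.0338). Foxo3, a factor that Akt keeps out of the nucleus, rose by 0.93 (adjusted p = 0.0344) with overlapping groups, 1470, 2970 and 3599 against 1488, 1171 and 1306. Its other probe sets gave 1.25 and 5.44. The latter averaged 1389 on the knockout-labelled arrays and 34.5 on the wild-type-labelled arrays, which is under the filter. It was thus tested only through the knockout-labelled arrays, and its size rests on dim signal. Pik3cd, a catalytic subunit, rose by 1.18 at its brightest probe set (adjusted p = 0.000688), while 3 of its 5 others fell by 1.75 or more, so no direction is given for it. In the Ras and MAP kinase branch 1 of 4 genes tested passed. Braf rose by 0.87 (adjusted p = 0.0385), and Map2k1, Map2k2 and Nras gave -0.045, 0.36 and -0.063 (adjusted p 0.311 to 0.85). The other probe sets of Nras passed in opposite directions, at 0.87 and -0.84.

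Of 15 other genes described as targets of erythropoietin or Stat5, 2 rose and 5 fell, with a median of -0.52. Trib3, a pseudokinase, rose by 3.14 (limma adjusted p = 0.00158), with 532.1, 2577 and 1316 on the knockout-labelled arrays against 103.1, 154.6 and 164.8 on the wild-type-labelled arrays. Id2, an inhibitor of helix-loop-helix factors, fell by 1.79 (adjusted p = 7.36e-05), Ccnd2, cyclin D2, fell by 1.24 (adjusted p = 0.00138), and Mcl1, a survival protein of the Bcl2 family, fell by 0.85 (adjusted p = 0.00531). All but 1 of the other Mcl1 probe sets passed downward too, and those of Ccnd2 ran from -1.89 to 0.73. The brightest probe sets of the survival genes Mcl1 and Bcl2l1 thus gave changes of opposite sign. Pim2 and Pim3, the relatives of Pim1, did not pass at their brightest probe sets (0.20 and -0.52, adjusted p 0.445 and 0.311). The other Pim3 probe sets gave 0.873 (adjusted p = 0.0162) and 1.055 (adjusted p = 0.0603), so no direction is given for Pim3.

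Among receptors of the same or related families, 1 of 9 rose and 6 fell, with a median of -1.70. Kit, the receptor for stem cell factor that works beside Epor in early precursors, gave 985.1, 1407 and 1343 on the knockout-labelled arrays, against 4065, 3907 and 4287 on the wild-type-labelled arrays. It fell by 1.73 (limma adjusted p = 0.000149), opposite in sign to Epor on the same arrays. Csf2ra, a chain of the GM-CSF receptor, fell by 2.48 (adjusted p = 2.9e-05), Csf3r, the G-CSF receptor, fell by 1.98 (adjusted p = 7.65e-05) and Il7r, the receptor of lymphoid precursors, fell by 2.85 (adjusted p = 0.000302). Of 9 neutrophil markers 6 fell, while Mpo, S100a8 and S100a9 did not pass (0.020, 0.10 and 0.22). The summed neutrophil signal overlapped, at 96342 to 200830 on the knockout-labelled arrays and 181860 to 211090 on the wild-type-labelled arrays. Lymphoid markers moved with these receptors. The part of neutrophil and lymphoid cells was not tested. Ghr, the growth hormone receptor and the member that rose, gave 970.9, 899.4 and 762, against 145.1, 109.9 and 50.49. Its wild-type-labelled mean is under the filter, so it was tested only through the knockout-labelled arrays. It is strongly expressed in hepatocytes, whose markers summed to 108690 to 179540 against 8056 to 8626. Their part was not tested either. Ghr was named after its values were seen.

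**Figure D4:**
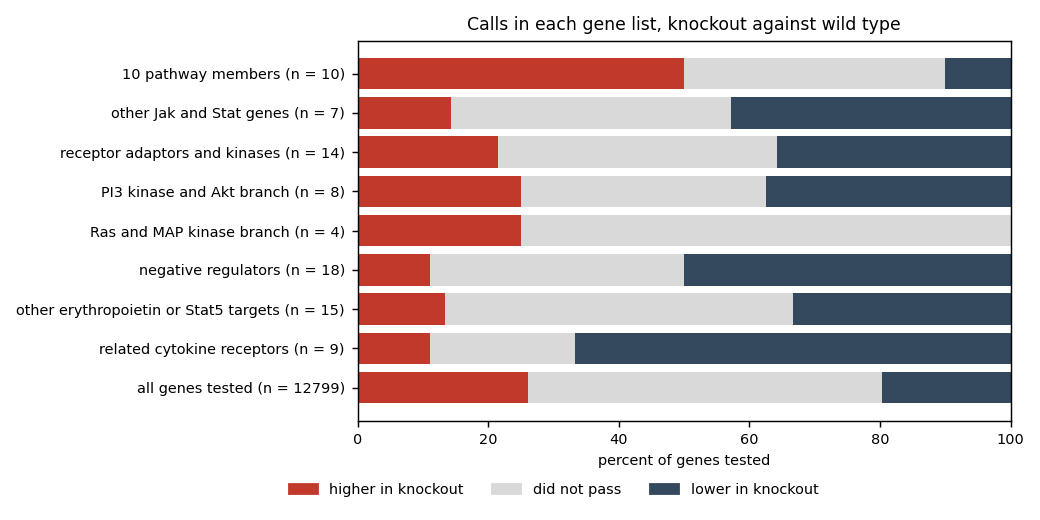
Percent of the tested genes of each list that were higher on the knockout-labelled arrays (red), did not pass (grey) or were lower (dark blue), with the number tested beside each name and all 12799 genes at the bottom. The 10 pathway members show 5 higher and 1 lower, and the related cytokine receptors 1 higher and 6 lower.

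The genes whose 6 log2 signals ran most like those of Epor were Hmgb3, Aqp6, Crb3, Ptprf and Gstm3, with Pearson r of 0.998 to 0.999 over the 6 arrays. With 2 groups far apart such values are common, and 753 of 12798 genes had an r above 0.95. Hmgb3, a chromatin protein of blood progenitors, gave 11980, 10760 and 11810 on the knockout-labelled arrays, against 5565, 5930 and 6952 on the wild-type-labelled arrays. Like Epor, it was highest on wild-type-labelled array 3 and lowest on knockout-labelled array 2 within its groups. Since it was picked by r over these same arrays, this order follows from the choice and supports nothing. Aqp6 was dim, at 197.9, 182.2 and 197.5 against 105.2, 114.9 and 130.2, and did not pass (adjusted p = 0.0887).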

How the data were processed

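RNA from 3 knockout-labelled and 3 wild-type-labelled samples was hybridised to 1 single-colour Affymetrix mouse array each. The deposited values are intensity signals per probe set, for which the submitters' processing notes name MAS5 and Affymetrix Expression Console (no version is given in the labels). The number of arrays limits the precision.

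All 45101 probe sets were read, of which 34958 are listed with 1 gene, 932 with several and 9211 not at all. Gene symbols are those of RefSeq, matched by Entrez identifier. Signals under 1 were set to 1 and log2 was taken. Control probe sets (64) and those whose log2 signals averaged below the 40th percentile (6.62, a signal of 98.6) were left out. The remaining 27023 were fitted with limma 3.58.1 in R 4.3.3 (lmFit, eBayes with trend), and two-sided p-values were adjusted over all of them by Benjamini-Hochberg. The fitting step alone was run on simulated data with known differences added, which does not test the filter or the scalings. A gene is read at its brightest probe set. Every adjusted p is limma's.

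The members, the lists and the motifs were chosen with earlier results of these data known. Named beside the members are Klf1, up to 4 genes with the smallest p per list, genes marked as named after their values were seen, and the 5 genes most like Epor. Socs1, Stat3, Pim2, Pim3 and the marker genes were also named outside this rule. Of 90 listed pathway genes 76 had a probe set of their own, and the others were not analysed here.

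Deviations of same-numbered arrays from their group means correlated at 0.042 to 0.076, each under the 0.1 taken to show pairing, so arrays were not paired. Figures were drawn with matplotlib 3.10.9.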

Additional observations from a re-analysis of the deposited data

How the results depend on the processing

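The 10 member calls were read again in 179 gene and setting combinations. Of these 172 kept their side of the threshold, or stayed without a call, 3 lost the call (Epor, Pim1 and Bcl2l1, all after median centring), 4 gained one (Socs2 and Stat5b after median centring, and Socs3 in 2 fits without 1 array) and 0 called values reversed. Settings were quantile normalization, cyclic loess, median centring, offsets of 16 and 64, no filter and a 60th percentile filter, no variance trend, 1 probe set or the mean of probe sets per gene, the replicate block, a threshold of 0.01 and each array left out. The filters, the variance trend, 1 probe set per gene, the replicate block and the threshold of 0.01 leave the difference of a gene unchanged. In these only the p-value or its cut-off can move, so the 172 are not independent checks. With the mean of probe sets Stat5a fell by 0.72 (adjusted p = 0.0185). Leaving out 1 array gave 6 to 7 member genes, 10 to 12 member probe sets, 30 to 45 pathway genes and 4291 to 5897 of all genes called. At the threshold of 0.01 there were 3260 calls over all genes and 26 over the pathway lists. The replicate block gave 6 member genes, 11 member probe sets, 44 pathway genes and 5801 genes in all. Per the labels, same-numbered arrays share only a number, although each array correlated best with its own number. Whether they also share a batch was not tested. Socs2 fell under the filter with the mean of probe sets, and the fits per gene give no count of probe sets. Dim signals, as for Socs2 and Socs3, limit what can be detected.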
